A study of Mus musculus with 13 samples.

Results

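The genes described here are Bst1, Il31ra, Slc5a9, Epb41l4b, Rab44, Arhgef10l, Nckap5, Tcte2 and Atoh8. Their transcripts were counted in thymocytes at the double negative stage DN3 and were much lower at DN4, where 4 of them had 5 counts or fewer in every library. These 9 of the 47937 genes in the count table were chosen from these same libraries because they fell most consistently between the stages. The fall itself is therefore a description, and what was tested was whether their levels differed between the genotypes. RNA-seq reads had been counted per gene in 13 libraries from 7 mice, and the question was whether deletion of Opa1, a mitochondrial fusion and cristae-shaping protein, changes thymocytes around β-selection.

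All mice were C57BL/6, aged 6 weeks by the series' design text. All carried a Cre recombinase transgene driven by the Lck promoter, which is active in developing T cells. The controls, WT;Lck-Cre+, are called Wt, and the mice that also carried floxed Opa1 alleles, Opa1fl/fl;Lck-Cre+, are called KO-labelled and are marked KO in plots. DN3 was sequenced from 3 mice of each genotype, and DN4 from 3 KO-labelled and 4 Wt mice. Mice KO45, KO49, KO51, WT05, WT46 and WT48 each gave both stages, and WT40 gave DN4 only. The labels used here give no sex. The libraries of WT40 and WT46 had 0 to 2 Xist counts and 3848 to 4238 counts of Y-linked genes, whereas all others, the KO-labelled ones included, had at least 10672 Xist counts, so the comparisons were also run without WT40 and WT46. Opa1 itself did not separate the genotypes. In DN3 it stood at 88.6, 93.8 and 89.6 CPM (counts scaled to a common library size) in KO45, KO49 and KO51 and at 112, 91.9 and 91.1 CPM in WT05, WT46 and WT48. In DN4 it was at 77.0, 81.4 and 87.9 CPM in the KO-labelled mice and at 90.6, 93.8, 86.6 and 85.1 CPM in WT05, WT40, WT46 and WT48. The fitted log2 difference was -0.12 (SE 0.133, edgeR adjusted p = 1.0) in DN3 and -0.083 (SE 0.0881, adjusted p = 0.945) in DN4. A gene count covers the exons outside a floxed segment as well, so it does not show whether the segment was removed. By immunoblot of thymocyte lysates, the paper reports an efficient reduction of OPA1 protein in Opa1fl/fl;Lck-Cre+ mice.

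DN3 thymocytes display the interleukin 2 receptor α chain (CD25, encoded by Il2ra), depend on NOTCH signals and rearrange the T cell receptor β locus. Cells whose β chain pairs with the pre-TCR α chain pass β-selection, divide, lose CD25 and become DN4. The genes described here are not a pathway. They comprise a cell-surface ectoenzyme, a cytokine receptor, a sugar transporter, regulators of the cytoskeleton and of vesicle traffic, a transcription factor and 2 genes of less settled function.

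The stage labels were checked against 9 DN3 reference genes, of which 5 were lower in Wt DN4 and 6 in KO-labelled DN4 by edgeR's quasi-likelihood test. Il2ra kept between 1.16% and 1.45% of its DN3 level in the Wt mice and between 1.34% and 1.93% in the KO-labelled mice. Library totals ran from 5926848 to 14148661 counts, with a median of 10023044. The DN3 library of WT05 stood apart, with 41.4% of its counts on 11 ribosomal RNA-like genes, and it held the fewest DN3 counts of all selected genes but Il31ra. Markers of several other cell types were higher in the DN4 libraries. The 8 B cell markers summed to between 232 and 2950 CPM in DN4, against 22.2 to 56.5 CPM in DN3, highest in WT48, KO49 and WT05, and 6 of the 8 were called higher in Wt DN4. Markers of NK and innate lymphoid cells, of γδ T cells and of immature single positive and double positive thymocytes were called higher in Wt DN4 for 4 of 7, 5 of 6 and 4 of 5 genes, and the fifth of the last list, Arpp21, was called lower. Of the DN1 and DN2 markers, 6 of 8 tested were called higher in Wt and 4 of 8 in KO-labelled DN4. Kit was called lower in KO-labelled DN4 (-1.05, edgeR adjusted p = 0.0439) and was not called in Wt (-0.60, adjusted p = 0.0654). The sum of these markers ran from 48.5 to 112 CPM in DN3 and from 72.5 to 579 CPM in DN4. It was highest in WT48, WT05 and KO49, which also had the highest B cell marker sums. Whether these counts come from DN1 and DN2 cells was not tested. The 1 erythroid marker tested was called higher in Wt. Of the myeloid, stromal and mast cell lists, 2 of 9, 4 of 11 and 1 of 8 genes were tested and 0 were called higher by edgeR. In Wt 1, 2 and 0 of them were called lower, and in KO-labelled mice 1, 2 and 1. In such bulk libraries, fewer cells that express a gene and less RNA per cell cannot be told apart.

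DNA from the 250 bases before 3 of the transcription starts is shown. These starts were chosen because their genes came down to 4 counts or fewer in every DN4 library. The stretches also show which motif letters the genes share. RefSeq's GRCm38.p6 promoter windows were available for 6 of the 9 genes, with 8 starts, and Bst1, Rab44 and Slc5a9 had no entry. The stretches are chr6:72235578-72235827 for Atoh8, chr1:126830800-126830882 for the first start of Nckap5 and chr13:112580663-112580912 for Il31ra, all on the minus strand and written 5′ to 3′. Only bases outside annotated exons are printed. For Nckap5 these are bases 250 to 168 before the start, so the bases next to that start are not shown. Capitals mark matches on either strand to 4 motifs, TGGGAA (the core bound by CSL, the DNA-binding partner of NOTCH), CAGNTG (an E-box of the type bound by E proteins), TGNGGT (the RUNX core) and AGATAA (the GATA type).
Atoh8: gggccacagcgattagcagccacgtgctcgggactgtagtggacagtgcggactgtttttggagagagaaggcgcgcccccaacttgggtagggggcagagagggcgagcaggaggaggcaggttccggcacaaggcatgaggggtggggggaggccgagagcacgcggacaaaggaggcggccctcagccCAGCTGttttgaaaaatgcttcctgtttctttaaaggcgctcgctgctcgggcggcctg
Nckap5: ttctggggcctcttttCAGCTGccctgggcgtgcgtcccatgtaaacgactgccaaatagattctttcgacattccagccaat
Il31ra: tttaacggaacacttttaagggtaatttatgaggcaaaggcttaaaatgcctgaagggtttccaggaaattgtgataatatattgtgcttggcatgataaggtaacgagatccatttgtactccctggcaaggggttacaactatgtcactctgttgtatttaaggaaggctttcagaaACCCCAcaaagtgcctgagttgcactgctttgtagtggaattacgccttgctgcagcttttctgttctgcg

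Atoh8 and Nckap5 carried the same 6 letters, CAGCTG, which read alike on both strands. In the whole windows of 300 bases, an E-box match was present at 3 of the 6 genes (Nckap5, Arhgef10l and Atoh8), and each of these 3 had the form shown in capitals above. Of all 32851 windows, 51.4% held an E-box match and 16.3% held this form, which was counted only after the sequences had been read. A CSL match stood before 1 of the 6 genes, at the second start of Nckap5 (25.6% of all windows), a RUNX match at 3 genes (45.8%) and a GATA match at 1, Tcte2 (11.2%). The Il31ra window lies inside the gene's GENCODE span and in no annotated exon. Gene counts do not tell which start was used, and a match is a run of letters, not a shown binding site.

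In the DN3 libraries 5 of the genes were abundant, with at least 143 counts in every library, and 4 were sparse, with at most 111. Per length of transcript, Wt DN3 levels were 21.4 ± 4.57 RPKM (SD, n = 3) for Rab44, 18.3 ± 4.84 for Slc5a9, 16.5 ± 3.43 for Bst1, 13.9 ± 2.01 for Epb41l4b and 8.65 ± 1.06 for Arhgef10l. Of these, Arhgef10l alone had no Wt DN3 library that reached into the range of the others. Atoh8 followed at 1.48 ± 0.0769 RPKM, Tcte2 at 1.31 ± 0.527, Il31ra at 0.896 ± 0.219 and Nckap5 at 0.325 ± 0.0973. Neighbours in this order overlapped between libraries, apart from the steps from Epb41l4b to Arhgef10l, from Arhgef10l to Atoh8 and from Il31ra to Nckap5. All 9 had a higher CPM in each of the 6 DN3 libraries than in any of the 7 DN4 libraries, as had 6.86% of 13361 genes with enough counts. The choice of the genes fixed that result.

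**Figure D1:**
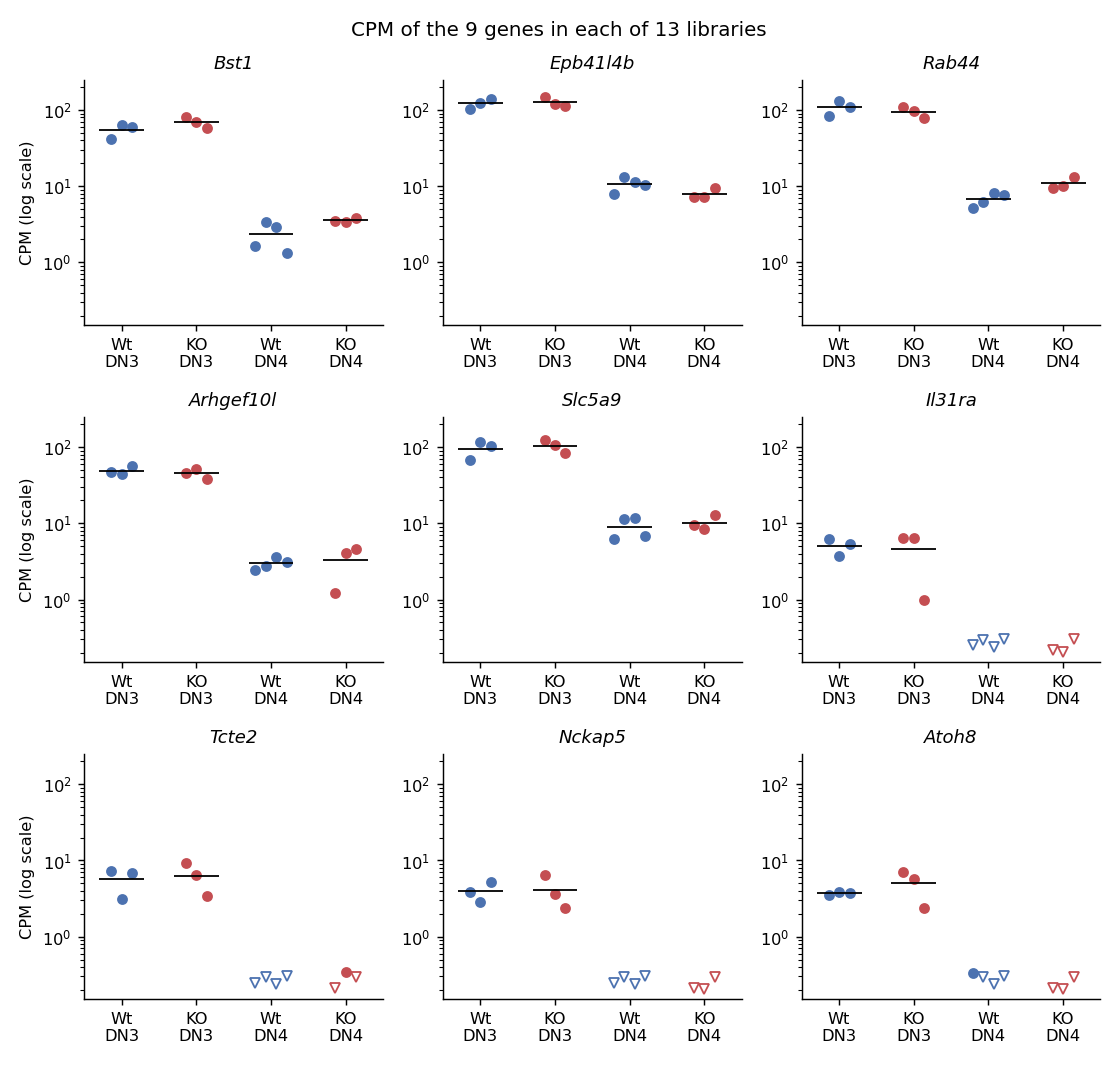
Each point is 1 library, plotted as CPM on a log scale for Wt (blue) and KO-labelled (red, KO) mice at DN3 and DN4, with a black line at the group mean where every library had more than 3 counts. Open triangles mark libraries with 3 counts or fewer, drawn at the CPM of 3 counts. The DN3 points of both genotypes sit above all DN4 points in each panel.

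Bst1 (ENSMUSG00000029082.17, chromosome 5, 43818885 to 43843986, plus strand) encodes CD157, a glycolipid-anchored ectoenzyme that uses NAD and can form cyclic ADP-ribose. It stood at 80.9, 69.7 and 57.4 CPM in DN3 of KO45, KO49 and KO51 and at 41.8, 62.8 and 59.9 CPM in DN3 of WT05, WT46 and WT48. In DN4 the KO-labelled libraries held 3.51, 3.39 and 3.78 CPM, and those of WT05, WT40, WT46 and WT48 held 1.67, 3.41, 2.92 and 1.32 CPM. The genotypes overlapped at both stages. In DN4 the overlap rested on WT40, just above KO49. Within each mouse, between 2.20% (WT48) and 6.60% (KO51) of the DN3 level was left. With library totals WT05 was the highest, at 6.86% against 6.58% in KO51. The 2 lowest DN4 values were those of WT05 and WT48, the Wt libraries with the most B cell marker counts. The part of those counts in this difference was not tested. Exons of Fbxl5 overlap Bst1 on the other strand. Fbxl5 lay between 79.2 and 132 CPM in all 13 libraries and was lower in DN4 (log2 fold change -0.46 in Wt, -0.59 in the KO-labelled group). The strand setting of the counting is not given in the sources used here.

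Cd38, the paralogue next to Bst1, which makes the same second messenger, ran the opposite way. It had between 0 and 6 counts in every DN3 library and reached 26.3, 47 and 5.08 CPM in the KO-labelled DN4 libraries and 46.2, 11.2, 13.2 and 83.9 CPM in those of WT05, WT40, WT46 and WT48. Its order among the DN4 libraries was that of the B cell markers, with WT48, KO49 and WT05 at the top and KO51 at the bottom. Of the listed genes of NAD and cyclic ADP-ribose metabolism, Cd38 among them, 2 of 9 tested were higher and 1 lower in Wt DN4, and 1 of 8 was higher and 1 lower in KO-labelled DN4. Over all genes tested, 13.4% were higher and 9.43% lower in Wt, and 11.2% and 7.34% in KO-labelled mice. The lower gene was Nmnat3, a NAD-synthesis enzyme, at a log2 fold change of -1.15 (SE 0.204, adjusted p = 0.00496) in Wt and -1.11 (SE 0.190, adjusted p = 0.00644) in KO-labelled mice. With library totals in place of TMM scaling the Wt call was lost (adjusted p = 0.0839).

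Il31ra (ENSMUSG00000050377.7, chromosome 13, 112519898 to 112594360, minus strand) encodes the receptor chain that binds interleukin 31 together with the oncostatin M receptor. DN3 counts were 79, 48 and 10 for KO45, KO49, KO51, and 21, 42 and 49 for the Wt mice in the order WT05, WT46, WT48. In DN4 it had 3, 1 and 0 counts in the KO-labelled libraries and 1, 0, 0 and 0 counts in those of WT05, WT40, WT46 and WT48. With 3 counts as the limit in each DN4 library, Il31ra was at least 19.3-fold lower in KO-labelled and at least 18.8-fold lower in Wt DN4 than in DN3. A processed pseudogene, Gm3226, overlaps its exons on the same strand and is not used here. The bound was loosest in KO51, whose 10 DN3 counts allow up to 30.5% to be left. Il31, the ligand, and Osmr, the partner chain, were at 0 counts in all 13 libraries. Il6st, the related shared chain of the family, had between 424 and 950 counts in DN3 and was called higher in DN4, by 1.26 (SE 0.209, adjusted p = 0.00381) in Wt and 1.33 (adjusted p = 4.31e-04) in KO-labelled mice on the log2 scale. Without WT40 and WT46 the Wt call was lost. Of the 9 tested genes of the receptor's signalling list, 4 were higher and 1 lower in Wt DN4, and 2 higher and 1 lower in KO-labelled DN4. The shares over all genes tested were 13.4% higher and 9.43% lower in Wt, and 11.2% and 7.34% in KO-labelled mice. The lower gene of the list was Stat5a, at -0.75 (SE 0.108, adjusted p = 0.00209) and -0.57 (SE 0.102, adjusted p = 0.00723). The Wt call of Stat5a was lost with library totals (adjusted p = 0.220) and without WT40 and WT46. The call of Jak2 as higher in KO-labelled mice was lost under 4 alternatives.

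Slc5a9 (ENSMUSG00000028544.14, chromosome 4, 111875375 to 111902918, minus strand) encodes SGLT4, a sodium-coupled transporter of mannose and related sugars. It stood at 125, 106 and 82.8 CPM in DN3 of KO45, KO49 and KO51 and at 67.0, 115 and 103 CPM in DN3 of WT05, WT46 and WT48. In DN4 it held 9.45, 8.50 and 12.7 CPM in the KO-labelled libraries and 6.16, 11.4, 11.8 and 6.90 CPM in those of WT05, WT40, WT46 and WT48. The genotypes overlapped at both stages, and between 6.71% (WT48) and 15.4% (KO51) of the DN3 level was left. Scaled by library totals, WT05 was the highest, at 15.8% against 15.4% in KO51. Its relatives Slc5a1, Slc5a4a and Slc5a4b were at 0 counts in all libraries. Slc5a3, a myo-inositol transporter, was the most abundant relative at 4.10 ± 3.35 RPKM in Wt DN3. It was also lower in DN4, by 1.12 on the log2 scale (fitted value -1.12, SE 0.204, adjusted p = 0.00802) in KO-labelled mice and with a value of -1.77 (SE 0.456, adjusted p = 0.0247) in Wt. Without the DN3 library of WT05 the Wt value was -0.89. In Wt its adjusted p lay between 0.0144 and 0.0613 when single libraries were left out, and the call was lost without any one of the 4 DN4 libraries, with limma-voom, and without WT40 and WT46 together. In KO-labelled mice it was lost when all 13 libraries were fitted together. Of 6 tested facilitative or sodium-coupled hexose transporters other than Slc5a9, 3 were called higher in DN4 in each genotype and 0 lower by edgeR. The shares called higher over all genes tested were 13.4% in Wt and 11.2% in KO-labelled mice. These calls of hexose transporters were not firm. In Wt, those of Slc2a1 and Slc2a8 were lost under 5 alternatives each and that of Slc2a6 under 2, and in KO-labelled mice that of Slc2a1 was lost under 8 and that of Slc2a3 under 5.

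Epb41l4b (ENSMUSG00000028434.12, chromosome 4, 56991972 to 57143437, minus strand) encodes a FERM-domain protein of the band 4.1 family, which links membrane proteins to the actin cytoskeleton. It stood at 147, 121 and 112 CPM in DN3 of KO45, KO49 and KO51 and at 104, 124 and 140 CPM in DN3 of WT05, WT46 and WT48. In DN4 the values were 7.16, 7.26 and 9.36 CPM in KO-labelled mice and 8.0, 13.2, 11.4 and 10.4 CPM in WT05, WT40, WT46 and WT48. The Wt DN4 values were mostly the higher ones, with 1 library inside the KO-labelled range. Epb41, its most abundant relative, was at 14 ± 2.32 RPKM in Wt DN3 and 15 ± 2.01 RPKM in Wt DN4, whereas Epb41l4b went from 13.9 to 1.21 RPKM.

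Rab44 (ENSMUSG00000064147.6, chromosome 17, 29114145 to 29148980, plus strand) encodes a large Rab GTPase with calcium-binding EF hands, known from granule release in mast cells. It stood at 109, 97.5 and 78.6 CPM in DN3 of KO45, KO49 and KO51 and at 84.3, 130 and 111 CPM in DN3 of WT05, WT46 and WT48. In DN4 it was at 9.52, 10.1 and 13 CPM in the KO-labelled libraries and at 5.25, 6.15, 8.2 and 7.61 CPM in those of WT05, WT40, WT46 and WT48. All 3 KO-labelled DN4 libraries thus lay above all 4 Wt libraries, whereas the DN3 ranges overlapped. Mouse by mouse, 8.76%, 10.3% and 16.6% of the DN3 level was left in KO45, KO49 and KO51, against 6.23%, 6.29% and 6.88% in WT05, WT46 and WT48. Scaled by library totals, WT05 stood at 10.7%, above KO45 (8.47%) and KO49 (10.1%), so these percentages were apart with TMM scaling but not with library totals. The 8 mast cell and basophil markers summed to at most 14.9 CPM in KO-labelled DN4 and to between 15.8 and 47.7 CPM in Wt DN4, the reverse order of Rab44. Nearly all of this sum was Cpa3, the 1 marker of the 8 with enough counts to be tested, at 11.3 ± 3.66 CPM (SD, n = 3) and 29.1 ± 14.5 CPM (SD, n = 4). The sum of the 7 NK and innate lymphoid markers was separated in the direction of Cpa3, with 290, 424 and 399 CPM in KO45, KO49 and KO51 and 569, 453, 441 and 568 CPM in WT05, WT40, WT46 and WT48. Of the 7, Gzma, Prf1, Eomes and Il2rb had fitted values below 0 and Ncr1, Klrb1c and Tbx21 values between 0.030 and 0.16, and 0 were called by edgeR. The part of these cells in the Rab44 difference was not tested. Cracr2a, the related EF-hand Rab with the higher level in Wt DN3, was at 1.42 ± 0.536 RPKM there and 1.99 ± 0.0339 RPKM in Wt DN4.

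Arhgef10l (ENSMUSG00000040964.16, chromosome 4, 140514485 to 140666012, minus strand) encodes a guanine nucleotide exchange factor. It stood at 45.9, 51 and 38.5 CPM in DN3 of KO45, KO49 and KO51 and at 47.1, 44.5 and 56.0 CPM in DN3 of WT05, WT46 and WT48. In DN4 it was at 1.22, 4.08 and 4.58 CPM in the KO-labelled libraries and at 2.42, 2.73, 3.63 and 3.14 CPM in those of WT05, WT40, WT46 and WT48. The KO-labelled DN4 values lay on either side of the whole Wt range, with KO45 lowest and KO49 and KO51 highest. Arhgef10, its closest relative, was at 1.14 ± 0.0459 RPKM in Wt DN3 and 1.26 ± 0.152 RPKM in Wt DN4.

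Nckap5 (ENSMUSG00000049690.15, chromosome 1, 125913620 to 126830799, minus strand), which encodes a large NCK-associated protein, had DN3 counts of 79, 27 and 24 in KO45, KO49, KO51, and of 13, 32 and 47 in WT05, WT46, WT48 respectively. In DN4 there was 1 count in KO45 and 0 in each of the other 6 libraries. Nckap5 was at least 17.3-fold lower in KO-labelled and at least 14.5-fold lower in Wt DN4. Its relative Nckap5l was at 12.6 ± 2.80 RPKM in Wt DN3 and 12.0 ± 0.878 RPKM in Wt DN4.

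Tcte2 (ENSMUSG00000038347.14, chromosome 17, 13712444 to 13761825, minus strand), a t-complex gene first known from testis, had DN3 counts of 111, 48 and 35 in KO45, KO49, KO51, and of 25, 35 and 62 in WT05, WT46, WT48 respectively. In DN4 there were 5 counts in KO49, 1 in WT48 and 0 in the other 5 libraries. In Wt it was at least 21.2-fold lower in DN4. In KO49, the only mouse with a measured value, 5.41% was left. Exons of Afdn overlap Tcte2 on the other strand, and Afdn also fell in DN4, from 8.53 to 37.4 CPM in the DN3 libraries to 3.02 to 6.94 CPM in the DN4 libraries. Afdn kept between 31 and 97 counts in each DN4 library. A lincRNA overlaps exons of Tcte2 on the same strand and is not used here.

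Atoh8 (ENSMUSG00000037621.8, chromosome 6, 72206177 to 72235577, minus strand) encodes a basic helix-loop-helix transcription factor, a class that binds E-boxes, often as a dimer with an E protein. Its DN3 counts were 86, 43 and 24 in KO45, KO49, KO51, and 12, 44 and 34 in WT05, WT46, WT48 respectively. In DN4 it had 1, 0 and 0 counts in the KO-labelled libraries and 4, 0, 3 and 0 counts in those of WT05, WT40, WT46 and WT48. It was at least 21.0-fold lower in KO-labelled DN4, and in WT05, where it passed 3 counts, 9.49% was left (16.3% with library totals). Its relatives Atoh1 and Atoh7 were at or near 0. Of its 5 tested helix-loop-helix partners, the E protein genes Tcf3, Tcf4 and Tcf12 were not called in either genotype. Id3, an inhibitor of E proteins, was called higher in DN4 in both, by 1.79 (SE 0.303, adjusted p = 0.00408) in Wt and 1.42 (SE 0.101, adjusted p = 3.77e-04) in KO-labelled mice on the log2 scale, and Id2 in Wt (1.84) but not in KO-labelled mice (1.42, adjusted p = 0.0526). The difference between the genotypes was not called for any of these partners.

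**Figure D2:**
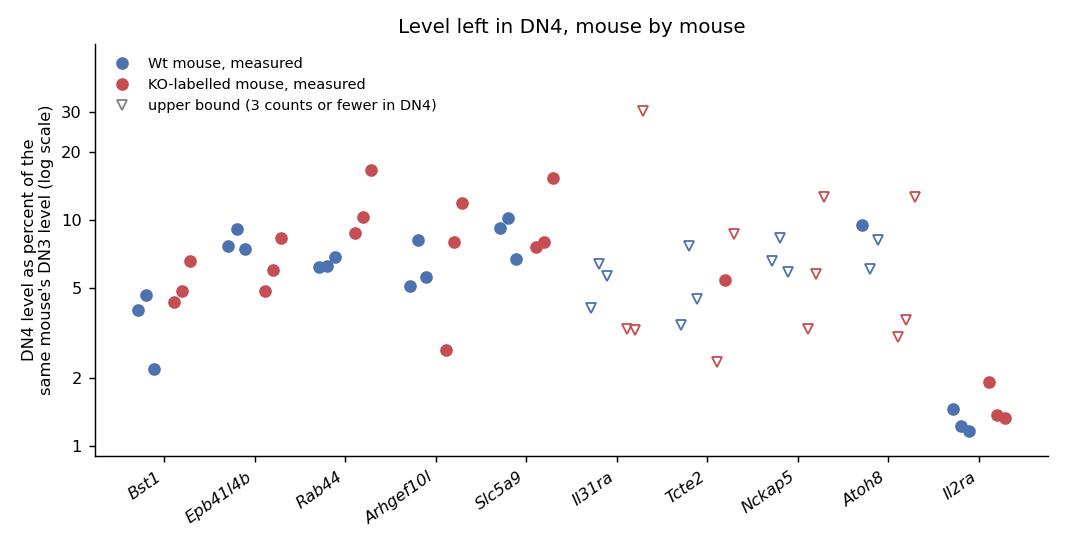
Each symbol is 1 mouse and shows the DN4 CPM as a percentage of the DN3 CPM of that mouse, on a log scale, for Wt (blue) and KO-labelled (red) mice. Filled circles are measured values and open triangles upper bounds, where DN4 held 3 counts or fewer. For Rab44 the 3 KO-labelled mice, at 8.76% to 16.6%, lie above the 3 Wt mice, at 6.23% to 6.88%, with the TMM scaling plotted, whereas with library totals WT05 is at 10.7%, inside the KO-labelled range. Il2ra lies below all measured values of the 9 genes.

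Across the relatives, 7 of 16 tested were higher and 2 lower in DN4 in each genotype, against 13.4% of 12691 genes higher and 9.43% lower in Wt and 11.2% of 12580 higher and 7.34% lower in KO-labelled mice. Some of these calls were lost under alternatives, in Wt those of Epb41l2 under 7, Slc5a3 under 6, Epb41l1 under 5 and Cd38, Il6st, Il27ra and Il12rb2 under 1 each, and in KO-labelled mice those of Epb41l1 and Il27ra under 5 each, Il12rb1 under 3, Epb41l2 under 2 and Cd38 and Slc5a3 under 1 each. The 9 selected genes were all called lower in both genotypes, which their selection fixed, with a median log2 fold change of -4.52 in Wt and -4.31 in KO-labelled mice, where the median of all genes was -0.028 and -0.025.

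**Figure D3:**
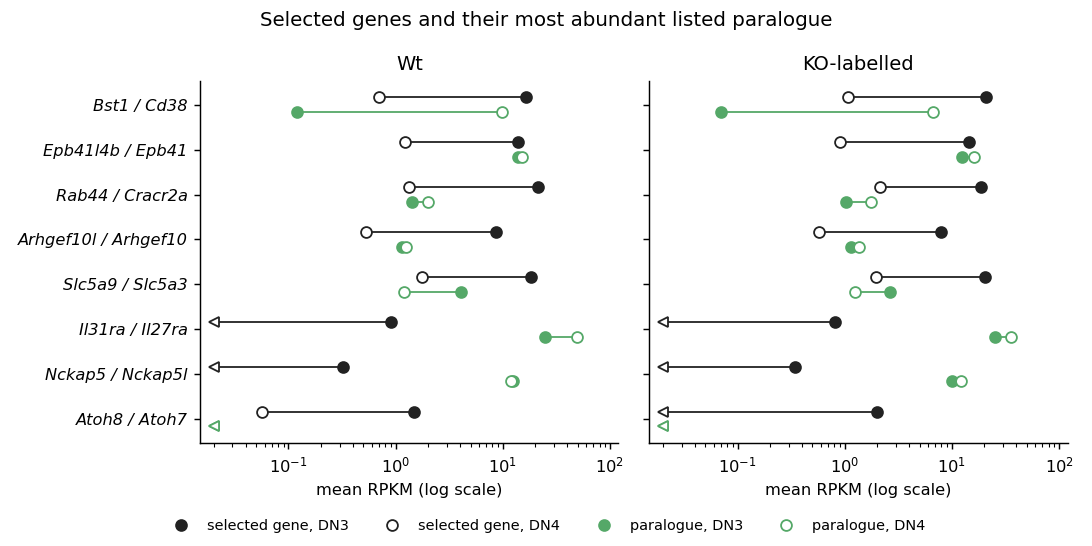
Mean RPKM on a log scale for 8 of the selected genes (black) and the listed relative with the highest Wt DN3 level (green), at DN3 (filled) and DN4 (open), in Wt and KO-labelled mice. Triangles at the left edge stand for values under 0.02 RPKM. The black pairs run from right at DN3 to left at DN4, while Cd38 runs the other way and Epb41, Arhgef10 and Nckap5l stay nearly in place.

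The genotypes were compared within each stage. In DN3, 0 of the 9 genes were called by edgeR at an adjusted p of 0.05, as were 0% of 12105 genes, and 0 of the 9 had an unadjusted p under 0.05. DESeq2 and limma-voom also called 0 of the 9. Over all genes, 168 had an unadjusted p under 0.05 and DESeq2 called 3. No gene of the 9 had KO-labelled and Wt ranges apart in DN3, where 3.1% of all genes had every KO-labelled library above and 3.34% every one below the Wt libraries. For the 5 abundant genes the fitted differences were small and bounded. They ran from -0.20 for Rab44 (95% interval -0.64 to 0.23) to 0.32 for Bst1 (-0.12 to 0.76), and each interval stayed within 1 in either direction. For Il31ra, Tcte2, Nckap5 and Atoh8 the intervals reached past 1 on the log2 scale on at least one side, from -1.51 to 1.27 for Il31ra, the widest. These do not show equal levels, since a log2 difference of 1 lies within each.

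In DN4, 5 of the 9 genes had enough counts to be tested, and 0 were called by edgeR, DESeq2 or limma-voom, against 0.0535% of 13084 genes by edgeR. Over all genes 715 had an unadjusted p under 0.05, and DESeq2 called 51. Rab44 was 1 of the 5 with an unadjusted p under 0.05. That count rose to 2 of 5 without WT05 or without WT40, and to 3 of 5 without both WT40 and WT46, where the genes under 0.05 numbered 376, 699 and 1225. Rab44 was higher in KO-labelled mice by 0.71 on the log2 scale (SE 0.216, 95% interval 0.21 to 1.2), but its adjusted p over all genes was 0.851. It was also the 1 gene of the 5 whose KO-labelled libraries all lay above the Wt libraries, as did 2.74% of all genes, and 0 of the 5 lay wholly below, as did 4.34%. The adjusted p of Rab44 lay between 0.399 and 1.0 over all alternatives. The DN3 reference genes, summed, were at 2397, 1319 and 1600 CPM in DN4 of KO45, KO49 and KO51 and at 1024, 1510, 1158 and 866 CPM in WT05, WT40, WT46 and WT48. They overlapped between the genotypes. By edgeR 0 of the 9 were called, with a median log2 difference of 0.58, and 3 of the 9, Notch3 (1.04), Il2ra (0.69) and Notch1 (0.38), had an unadjusted p under 0.05, in the direction of Rab44. Whether a carry-over of DN3 transcripts takes part in the Rab44 difference was not tested. Bst1 was at 0.64 (95% interval -0.20 to 1.47), Slc5a9 at 0.20 (-0.46 to 0.86), Arhgef10l at 0.16 (-0.82 to 1.14) and Epb41l4b at -0.41 (-0.90 to 0.09), with adjusted p-values from 0.883 to 0.984. These intervals include a log2 difference of 1 for Bst1 and Arhgef10l, but not for Epb41l4b or Slc5a9. Without WT40 and WT46, Bst1 was at 1.29 (adjusted p = 0.434) and Slc5a9 at 0.69 (adjusted p = 0.527). The Wt DN4 libraries left, WT05 and WT48, had the highest Wt B cell marker sums (1554 and 2950 CPM). They also had the lowest Wt DN4 values of both genes. The part of those marker counts in these values was not tested.

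The 4 sparse genes did not pass the filter on low counts in DN4. With no filter beyond 1 count, or with all 13 libraries in 1 fit, they could be fitted and 0 were called by edgeR, with adjusted p-values from 0.826 to 1.0. Summed over the libraries, the 3 KO-labelled and the 4 Wt libraries held 4 and 1 counts of Il31ra, 5 and 1 of Tcte2, 1 and 0 of Nckap5, and 1 and 7 of Atoh8. Counts this low do not show whether the genotypes differ.

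**Figure D4:**
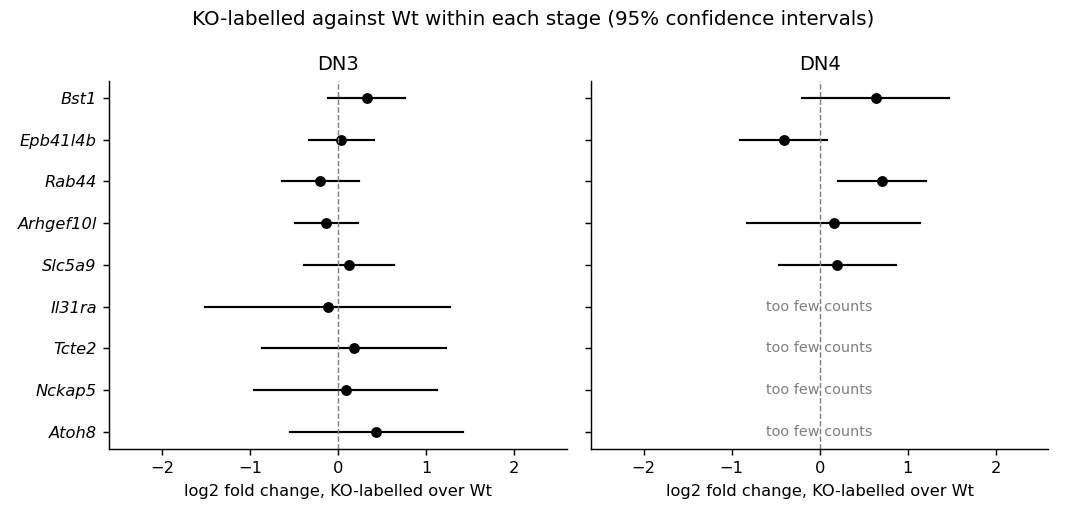
Fitted log2 fold change of KO-labelled over Wt mice (points) with 95% confidence intervals (lines) in DN3 and DN4, from edgeR. Every DN3 interval crosses 0. In DN4 that of Rab44, from 0.21 to 1.2, does not, and 4 genes had too few counts to be tested.

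The size of the fall was then compared between the genotypes by an interaction term in a model of the 13 libraries. Of the 9 genes, 0 were called by edgeR, DESeq2 or limma-voom, as were 0% of 13361 genes by edgeR. Over all genes 480 had an unadjusted p under 0.05 and DESeq2 called 2. Genes picked for a fall in every mouse lean towards no interaction, so this count is not independent of the choice. Rab44 had the smallest p of the 9, with a fall that was smaller in KO-labelled mice by 0.87 on the log2 scale (SE 0.279, 95% interval 0.27 to 1.47, adjusted p = 1.0), and it was number 54 of 13361 genes in the order of p. With library totals in place of TMM scaling, 0 of the 9 had an unadjusted p under 0.05. Epb41l4b stood at -0.48 (-1.03 to 0.06), Bst1 at 0.27 (-0.53 to 1.07), Arhgef10l at 0.25 (-0.72 to 1.22) and Slc5a9 at 0.036 (-0.77 to 0.84). Fitted values of the 4 sparse genes rest on 0 to 5 counts in each DN4 library and are not read as folds.

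Individual mice moved several of the genes together. Within the KO-labelled group, KO51 had the lowest DN3 level of all 9 genes and KO45 the highest of 8. KO51 also had the highest DN4 level and the highest percentage left for all 5 abundant genes. Its DN4 library also had the lowest B cell marker sum of the 3, at 232 CPM against 1016 in KO45 and 1757 in KO49, and the part of that in the order of the mice was not tested. Il2ra shared the lowest DN3 level, at 820 CPM in KO51 against 1250 in KO45 and 1337 in KO49, but not the highest percentage left, at 1.34% in KO51 and 1.93% in KO45. Among the Wt mice no mouse was lowest in DN3 for all genes, with WT05 lowest for 5 and WT46 for 4. The 9 genes are thus not separate measures of a genotype.

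The order of the genes by the clearest gap between stages was also computed, as the lowest DN3 CPM over the highest DN4 CPM with 3 counts as the least DN4 value. Il2ra came first of 13361 genes at 30.1. The selected genes took places 12 (Bst1, 11.1) to 64 (Il31ra, 3.22), so they were not the 9 with the widest gap. Mpzl2, with the same ratio of 11.1, stood just before Bst1, and Tshz2, at 5.77, just after Rab44. The genes whose log2 CPM over the 13 libraries was most like the mean of the 9 were Il2ra (Pearson's r = 0.991), Adgrg1 (0.987), Gm5111 (0.986), Eef2k (0.985) and Mpzl2 (0.985). The 13 points come from 2 stages and are given as a description. By Spearman's measure Adgrg1 and Eef2k ranked 4 and 8, whereas Mpzl2, Gm5111 and Il2ra ranked 221.5, 234 and 423.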

How the data were processed

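RNA had been extracted from sorted thymocytes and sequenced from stranded mRNA libraries. The deposited table holds raw counts per gene, which the authors made by trimming, alignment with STAR to mm10 and counting with featureCounts. The strand setting is not given in the sources used here. Counts were tested with edgeR 4.0.16 (quasi-likelihood, TMM scaling, filterByExpr, Benjamini-Hochberg adjustment over all genes, R 4.3.3), within each stage or genotype, and as an interaction over all 13 libraries. DESeq2 1.42.0, limma 3.58.1 (voom), other filters and scalings, and leaving out libraries were alternatives. The scripts were tested on simulated data. RPKM used the GENCODE M21 exon length. A level of 3 counts was the floor and replaced any lower DN4 count. Folds against it are bounds set by that floor. They do not cover counting error at either stage or the spread between mice. The genes, lists and motifs were chosen with earlier results of these data known; the text names the selected genes, their closest relatives, genes of the listed groups and the 5 genes most alike in profile. DN3 and DN4 libraries of the same mouse were pairs: their deviations from the group means correlated in each of 6 mice (0.124 to 0.46). Within a stage each library is 1 mouse, so p-values between genotypes measure the spread between mice. The main stage and interaction fits treated all libraries as independent and left out the pairing. A listed gene group is not reported here.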

Additional observations from a re-analysis of the deposited data

Results flagged for a closer look

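In Wt DN4, Il31ra stood out in 1 of 4 libraries, at 0.0833 CPM in WT05, and Tcte2 at 0.101 CPM in WT48, with the other 3 libraries at 0 in each case. Each value is 1 count, under the limit of 3 counts, and with the other 3 libraries at 0 any single count would stand out, so nothing is read from it.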

How the results depend on the processing

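No genotype or interaction difference of the 9 genes was called under any alternative run, with adjusted p-values of 0.399 or more. Requiring 10 counts in every library left 5 genes to call between stages in Wt and 5 in KO-labelled mice, because the 4 sparse genes were no longer tested. Directions turned for uncalled values only, among genotype and interaction values. With library totals, which moved the median of all genes by 0.24 in DN3 and by -0.18 in the interaction, Arhgef10l and Il31ra in DN3 were at 0.098 and 0.16 and the Slc5a9 interaction at -0.092 on the log2 scale. Without WT40 and WT46, Tcte2 and Nckap5 in DN3 were at -0.16 and -0.13. With limma-voom, Arhgef10l in DN4 was at -0.063. Leaving out 1 library at a time, DN3 values ran from -0.091 to 0.14 for Epb41l4b, -0.061 to 0.29 for Slc5a9, -0.48 to 0.37 for Il31ra, -0.21 to 0.47 for Tcte2 and -0.42 to 0.37 for Nckap5. Arhgef10l in DN4 ran from -0.13 to 0.55. Interaction values ran from -0.041 to 0.66 for Arhgef10l, -0.15 to 0.24 for Slc5a9, -1.67 to 3.39 for Tcte2 and -0.085 to 2.06 for Nckap5, where the last 2 rest on 5 counts or fewer in DN4. Otherwise the cause was not tested. With mouse as a replicate block, 0 of the 9 interactions were called by edgeR and 2 had an unadjusted p under 0.05, as had 685 of 13323 genes. The pairing thus changed no interaction call of the 9 genes. It did move the stage calls over all genes, from 2338 to 4499 in KO-labelled mice. In Wt, where the block left out WT40, they went from 2903 to 2340. Over all genes, DN4 calls between genotypes numbered 7, 51 with DESeq2 and 0 to 8 when 1 library was left out. Few counts limit what can be read for the 4 sparse genes in DN4.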
